A study of Caenorhabditis elegans with 6 samples.

Results

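The 53 genes described here encode the machinery of autophagy, the proton pump that acidifies lysosomes, and proteins of the lysosome membrane of the nematode Caenorhabditis elegans. They were picked by gene symbol, with earlier results of these data known, from the 19998 protein-coding genes of the deposited gene table, which lists 47656 genes in all. The autophagy genes are 27 in number: all with an atg or epg symbol, and lgg-1, lgg-2, bec-1, unc-51, vps-34, sqst-1 and hlh-30. The proton pump, called V-ATPase, has 20 genes with a vha symbol. The lysosome membrane genes are the 6 genes lmp-1, lmp-2, ctns-1, cup-5, laat-1 and rab-7, and the latter encodes a small GTPase that sits on late endosomes and lysosomes.

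RNA of whole wild-type worms was sequenced as stranded poly(A) libraries, 3 from a group labelled vehicle and 3 from a group given 100 µM ilimaquinone (spelled Ilimaquenone and IQ in the labels), a quinone that marine sponges make. Both groups were kept in M9 buffer at 20 °C up to L4, the last larval stage, and then for 11 days in complete S-Basal with ampicillin at 100 µg/mL and FUDR at 200 µM. FUDR, given to both groups, blocks DNA synthesis and is used to prevent the production of progeny. How far it did so here is not stated. The labels name no solvent for the vehicle. Nor do they state whether the worms of a group grew in separate cultures, so a p-value here reflects only how these libraries scatter, which may be technical. Adjusted p-values with no tool named beside them are from edgeR. Total counts lay between 32155192 and 39244786 per library.

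In autophagy a double membrane closes around cytoplasm, protein aggregates or organelles and then fuses with a lysosome, where hydrolases digest the contents. The V-ATPase is a rotary pump: its V1 sector splits ATP in the cytosol and its V0 sector carries protons across the membrane, which gives lysosomes the acidity that the hydrolases need. In the worm the transcription factor HLH-30, the counterpart of TFEB, is known for driving many autophagy and lysosome genes, and autophagy genes are needed for the long life of several mutants.

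Vehicle replicate 1 was unlike the rest. A principal component analysis of log2 CPM, the counts of a gene scaled to a common library size, placed it at -98.8 on the leading axis, with 57.6% of the variance, and the others at -26.5 to 54.1. Its summed level of 18 germline and oocyte markers was 3036 CPM, while vehicle replicates 2 and 3 had 846 and 1011 CPM and the ilimaquinone group 532 to 745 CPM. Markers fixed for the germline, sperm, intestine, excretory canal, epidermis, muscle, neurons, pharynx and coelomocytes were all detected, as whole animals should give. In such bulk samples fewer cells of a type and less RNA per cell cannot be told apart. The V-ATPase genes were lowest of the vehicle group in this library in 16 of 20 cases, and the autophagy genes in 18 of 27. The share of all tested genes lowest there is not given, so this is not shown to be particular to these genes. Median fold changes of the V-ATPase and autophagy genes are given with and without vehicle replicate 1, as are the values of some single genes.

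All 53 genes passed the filter on low counts and entered the test over 16506 genes. Summed over the 6 libraries they held from 376 counts for atg-10 to 255251 counts for sqst-1. To compare genes, levels are given as TPM, which is scaled by transcript length and library size. The autophagy gene with the highest level was lgg-1, which encodes a ubiquitin-like protein of the Atg8 family that is attached to the autophagosome membrane, at 1542 ± 234 TPM (mean ± SD, n = 3) in vehicle and 1426 ± 15.95 TPM with ilimaquinone. The cargo receptor gene sqst-1, the counterpart of p62, followed at 592 ± 70.5 and 694 ± 34.9 TPM, and then lgg-2, the other Atg8 gene, at 309 ± 30.1 and 324 ± 23.3 TPM. The gene hlh-30 had the fourth highest level of the autophagy genes, at 200.3 ± 9.45 and 236 ± 20.5 TPM. At the low end stood atg-10, a conjugating enzyme gene, at 5.14 ± 1.61 and 3.41 ± 0.930 TPM.

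Levels of the pump genes lay closer together. Of the 20 V-ATPase genes 17 had a mean between 59.7 and 373 TPM over all libraries, each at a percentile of 88.4 or more among protein-coding genes with counts. Above them stood vha-2, which encodes the proteolipid subunit c of the proton channel, at 648 ± 36.7 TPM in vehicle and 865 ± 35.5 TPM with ilimaquinone. Below them were vha-7, an a subunit gene, at 16.9 ± 5.80 and 16.14 ± 1.81 TPM, and vha-18, the minor of the genes for subunit H, at 12.5 ± 8.57 and 6.24 ± 0.848 TPM. Among the lysosome membrane genes lmp-1, a LAMP family gene, had the highest level, at 326 ± 22.7 and 339.7 ± 14.98 TPM, and lmp-2 the lowest, at 13.1 ± 1.999 and 15.7 ± 0.620 TPM.

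**Figure D1:**
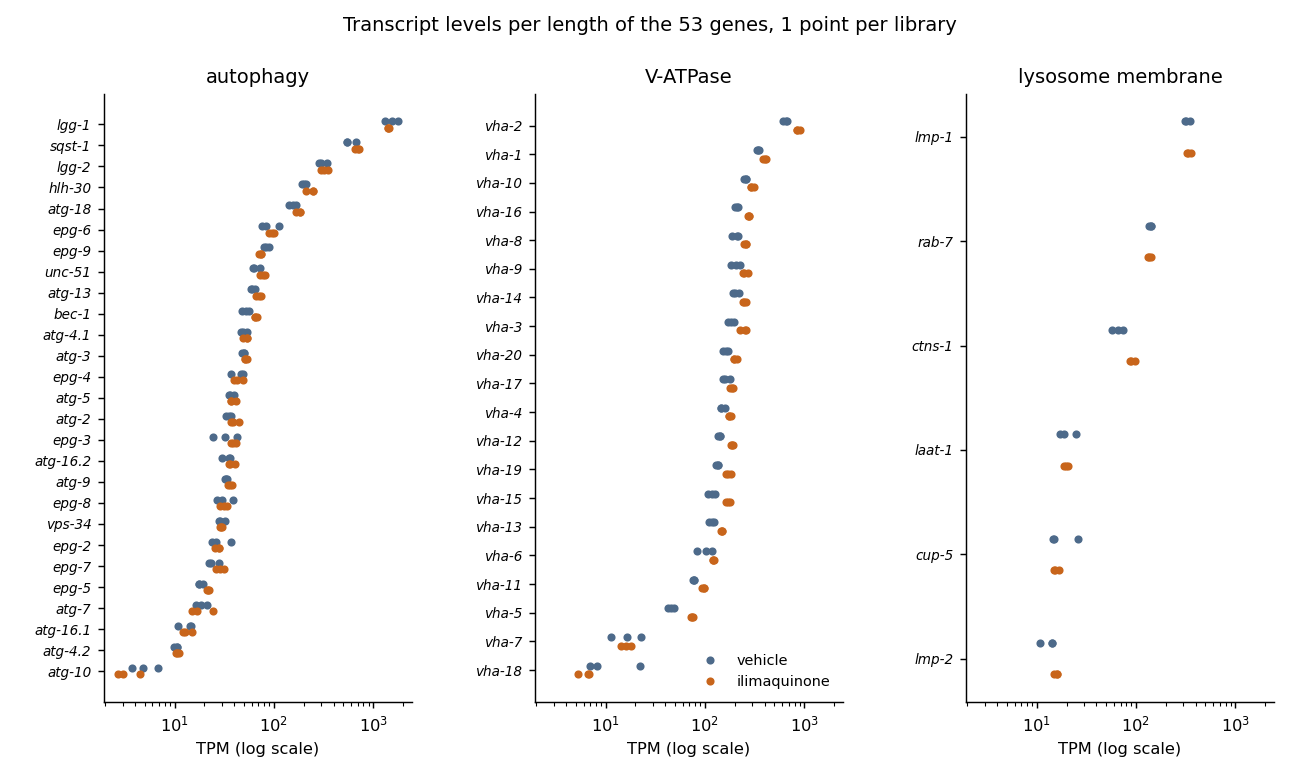
Level per length (TPM, log scale) of each of the 53 genes, 1 point per library, with vehicle and ilimaquinone libraries in separate colours and genes ordered by their mean. The V-ATPase genes lie close together, with a higher mean in the ilimaquinone libraries except for vha-7 and vha-18, and lgg-1 and sqst-1 stand above the other autophagy genes.

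The comparison of ilimaquinone with vehicle asks how these genes answer to the compound in adult animals. Most genes of the proton pump had higher levels with ilimaquinone by a small amount, and 1 of them, vha-5, passed the test. By edgeR's quasi-likelihood test, with p adjusted over all tested genes after Benjamini and Hochberg and a threshold of 0.05, 1 of 20 V-ATPase genes was called higher and 0 lower. Of all tested genes 1.47% were called, 1.14% higher and 0.327% lower. The fold change was above 0 on the log2 scale for 18 of the 20 genes, against 48.0% of all tested genes. In 17 of them every ilimaquinone library was above every vehicle library, as in 15.8% of all tested genes, and in 1, vha-18, every one was below, while 30.8% of all tested genes were separated in either direction. At an unadjusted p under 0.05 there were 13 higher and 1 lower, against 10.1% and 11.8% of all. The median log2 fold change of the 20 genes was 0.30, or 0.26 without vehicle replicate 1, beside -0.02 for all tested genes. Without that library the log2 fold change turned its sign in 1 of the 20 genes. With the same sign it moved by over 1.5 times to a smaller size in 4 of them and to a larger size in 0. DESeq2's Wald test called 8 of them higher, vha-2, vha-5, vha-8, vha-12, vha-13, vha-15, vha-16 and vha-19, and 0 lower, while it called 5.45% of all genes higher and 5.86% lower. With limma-trend on log2(TPM + 1) 3 were called higher, vha-5, vha-12 and vha-15, against 1.68% of all genes. The median standard error in edgeR was 0.10 for the V-ATPase genes and 0.12 for the autophagy genes, beside 0.23 for all tested genes. The shares given for all tested genes are thus not from genes of like precision.

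Summed over the 20 genes, V-ATPase transcripts made up 3238, 3720.5 and 3603 CPM in the vehicle libraries and 4552, 4337 and 4437 CPM in the ilimaquinone libraries. The sums of the groups did not overlap, and their ratio was 1.26. The genes do not share 1 place in the genome, with 7 on chromosome IV and 2 or 3 on each of the others. Levels of tissue markers differed as well. The summed level of 10 epidermis markers was 738 to 940 CPM in vehicle and 973 to 1078 CPM with ilimaquinone, and that of 12 intestine markers was 5127 to 8162 and 3653 to 3894 CPM. The sum of 8 pharynx markers was 662 to 833 and 875 to 954 CPM. These 3 sums did not overlap between the groups, and edgeR called 0 markers of each list. The sum of 18 germline and oocyte markers did not overlap either, at 846 to 3036 CPM in vehicle and 532 to 745 CPM with ilimaquinone. Of these germline and oocyte markers edgeR called 0 as well. The sums of the sperm, muscle, neuron and coelomocyte markers overlapped, and edgeR called 1 sperm marker, spe-38, lower. Markers of the excretory canal and duct summed to 485 to 551 CPM in vehicle and to 540.4 to 545 CPM with ilimaquinone, which overlap. Of these canal markers edgeR called exc-5 higher, from 58.5 to 84.0 CPM on average (log2 fold change 0.52 ± 0.08, adjusted p = 0.0398). Beside these calls, edgeR called 1.14% of all tested genes higher and 0.327% lower. The median log2 fold change was -1.59 for the germline and oocyte markers and -1.90 for the sperm markers. For the other marker lists it was -0.22 to 0.33, and for all tested genes -0.02. The part of these shifts in the pump result was not tested.

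**Figure D2:**
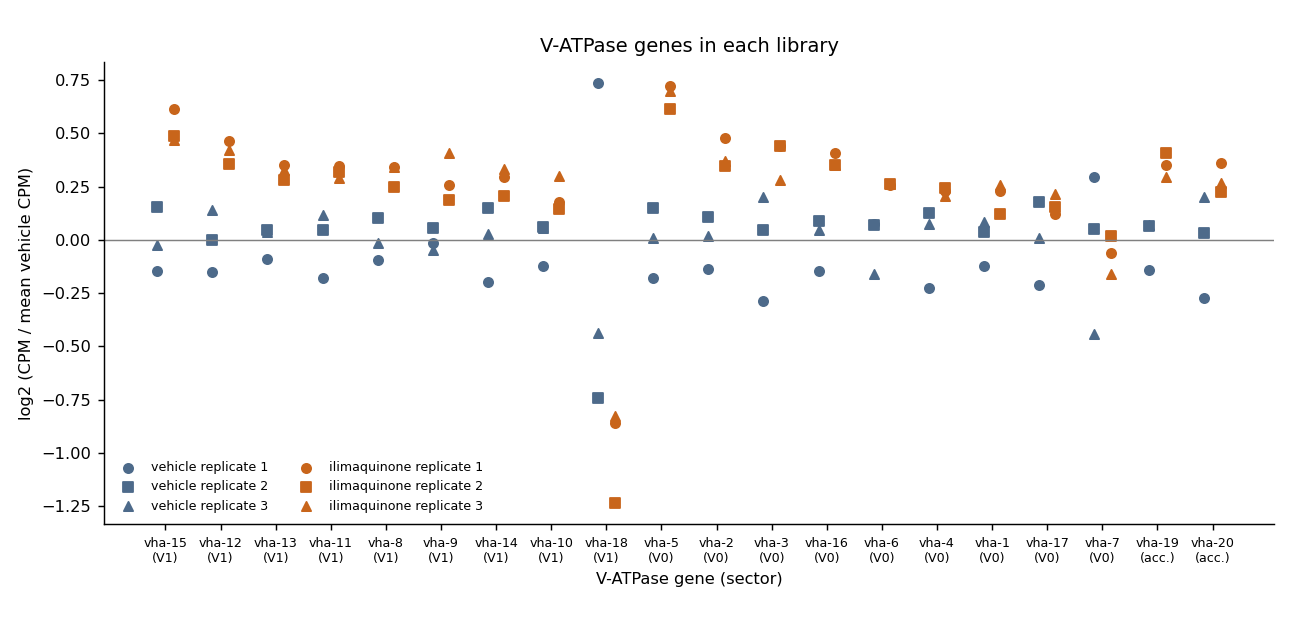
CPM of each V-ATPase gene in each library on a log2 scale, relative to that gene's vehicle mean, with replicates 1, 2 and 3 as circles, squares and triangles. Ilimaquinone points lie above all vehicle points for every gene except vha-17 and vha-7, where the groups overlap, and vha-18, where they lie below.

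The V1 sector holds the catalytic head and its stalk. Its catalytic A subunit is encoded by vha-13 (gene 3564970, chromosome V, 14349024 to 14355799, build WBcel235), at 377, 413 and 412 CPM in vehicle and 512, 486 and 503 CPM with ilimaquinone. The groups did not overlap, but the log2 fold change of 0.32 ± 0.08 (SE) missed the threshold (adjusted p = 0.125). The deposited locus shares 2459 bases with cept-2 on the same strand (33.6 to 38.1 CPM on average), so reads there may have been split. The B subunit gene vha-12 (gene 180692, chromosome X, 4191094 to 4193144) stood at 195, 216 and 238 CPM against 298, 276 and 289.6 CPM. Again all ilimaquinone libraries were higher, and the log2 fold change was 0.41 ± 0.10 (adjusted p = 0.110; 0.0371 by limma-trend on TPM values).

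Subunit H, which holds the head still when the pump is engaged, has a major and a minor gene, whose values differed in opposite directions. The major gene vha-15 (gene 180534, chromosome X, 2237911 to 2240255) had 153, 189 and 167 CPM in vehicle and 259.8, 238 and 234.6 CPM with ilimaquinone. Its log2 fold change was 0.52 ± 0.11 (adjusted p = 0.0735), the second highest of the pump genes, and it passed the test without vehicle replicate 1 (adjusted p = 0.0463). The minor gene vha-18 (gene 179223, chromosome V, 8411775 to 8413513), described here after its values were seen, had 24.6, 8.84 and 10.9 CPM in vehicle and 8.16, 6.28 and 8.33 CPM with ilimaquinone. The first vehicle library was far above the rest. Summed germline, sperm and intestine markers were highest in that library as well, and their part here was not tested. The log2 fold change of vha-18 was -0.96 ± 0.39 and did not pass (adjusted p = 0.217). It was -0.38 without vehicle replicate 1 (adjusted p = 0.261). Of the summed TPM of the H genes, vha-18 made up 15.8%, 5.20% and 7.13% in vehicle and 3.56%, 2.997% and 3.99% with ilimaquinone. The 95% interval of its log2 fold change with all libraries ran from -1.89 to -0.03. The vha-18 locus shares 57 bases with F52E1.2 on the other strand. That gene had 10.7 CPM in vehicle and 5.71 CPM with ilimaquinone on average (log2 fold change -0.90 ± 0.27, adjusted p = 0.154). Since the strand setting of the counting was not stated, reads in the overlap cannot be told apart.

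The other V1 genes, for subunits C, D, E, F and G, had log2 fold changes of 0.21 to 0.32. The lowest of these, vha-10 for subunit G, had 129, 146 and 146 CPM in vehicle and 159, 155 and 173 CPM with ilimaquinone, which did not overlap (log2 fold change 0.21 ± 0.09, adjusted p = 0.246). For subunit C, vha-11, the deposited locus runs 1948 bases past its end in the Ensembl annotation and so covers vha-3 entirely, on the same strand. Reads of vha-3 and vha-11 may thus have been split between them, and each value is uncertain. Together these stalk and head genes gave 8 of 9 V1 genes with separated, higher ilimaquinone libraries, beside 15.8% of all tested genes, and 4 that DESeq2 called higher, beside 5.45%.

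In the V0 sector the a subunit anchors the pump and decides where it is placed, and the worm has 4 genes for it, vha-5, vha-6, vha-7 and unc-32. The gene vha-5, known for its product at the apical membrane of the epidermis and the excretory canal, was the pump gene that rose. It is gene 177626 on chromosome IV, 8303968 to 8307369, and it had 97.4, 122.3 and 111 CPM in the vehicle libraries. With ilimaquinone it had 182, 168 and 179 CPM, each of them above every vehicle value. The log2 fold change was 0.68 ± 0.11, a 1.6002-fold rise with a 95% interval of 0.43 to 0.93 on the log2 scale (adjusted p = 0.0398). Without vehicle replicate 1 or 2 the call held, with adjusted p = 0.0170 and 0.0487, where 2.68% and 0.687% of all tested genes were called higher. It was lost without vehicle replicate 3 (adjusted p = 0.0835), and without ilimaquinone replicate 1, 2 or 3 (adjusted p = 0.226, 0.197 and 0.216). In these 4 fits 0.549%, 0.106%, 0.135% and 0.0648% of all tested genes were called higher. The log2 fold change in these 6 fits was 0.59 to 0.74. The last 76 bases of vha-5 overlap F35H10.10 on the other strand, with a log2 fold change of its own of 0.71 ± 0.24 (adjusted p = 0.176). Whether the counting used strand was not stated, so reads in the overlap cannot be told apart.

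The a subunit of the intestine, vha-6 (gene 174743, chromosome II, 11435210 to 11438452), had 232, 231 and 197 CPM in vehicle and 263, 264 and 264 CPM with ilimaquinone. These groups were separate as well, with a log2 fold change of 0.26 ± 0.09 (adjusted p = 0.188). The gene vha-7 (gene 178219, chromosome IV, 12640462 to 12650653) had 59.9, 50.5 and 35.9 CPM against 46.7, 49.4 and 43.7 CPM. Its groups overlapped, with a log2 fold change of -0.07 ± 0.19 (adjusted p = 0.852; 0.11 without vehicle replicate 1). The fourth gene, unc-32, best known from neurons and no vha gene by name, was at 241 ± 18.6 CPM in vehicle and 301 ± 12.05 CPM with ilimaquinone, which differ by 0.33 ± 0.09 on the log2 scale (adjusted p = 0.140).

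The make-up of the a subunit was described by the share of each gene in the summed TPM, and no share passed a test. The share of vha-5 was 16.14%, 18.8% and 19.04% in vehicle and 23.0%, 21.4% and 23.3% with ilimaquinone, so its shares did not overlap. The difference of the mean shares was 4.61 percentage points (exact two-sided permutation test over 3 and 3 libraries, p = 0.1, the smallest that this design allows; adjusted over the 4 genes p = 0.267). The mean share of vha-6 was 39.5% ± 2.57 and 37.1% ± 0.601, that of vha-7 6.51% ± 1.57 and 4.93% ± 0.426, and that of unc-32 36.03% ± 2.64 and 35.4% ± 0.932 (SD, n = 3). For each of these 3 genes the shares of the groups overlapped, with exact permutation p = 0.2, 0.2 and 0.8.

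**Figure D3:**
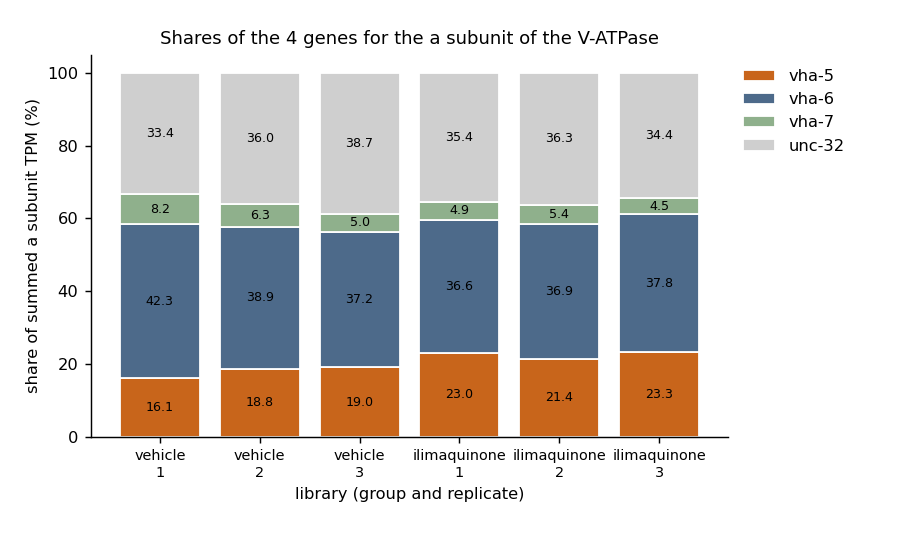
Share of the summed TPM of vha-5, vha-6, vha-7 and unc-32 held by each gene, as stacked bars for each library. The vha-5 segment is 16.14% to 19.04% in the vehicle libraries and 21.4% to 23.3% in the ilimaquinone libraries.

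The proteolipid subunits form the rotating ring through which protons pass. The most abundant, vha-2 (gene 187779, chromosome III, 9782155 to 9783533), had 475, 563 and 529 CPM in vehicle and 728, 665 and 674 CPM with ilimaquinone. All ilimaquinone libraries were above the vehicle ones, with a log2 fold change of 0.40 ± 0.10 (adjusted p = 0.115; DESeq2 adjusted p = 0.00703). Its neighbour vha-1 (gene 176383, chromosome III, 9781254 to 9781763), 391 bases away on the same strand, had 131, 147 and 152 CPM against 168, 156 and 171 CPM. That difference was smaller, at 0.20 ± 0.09 (adjusted p = 0.252). The gene vha-3 (gene 177018, chromosome IV, 2315460 to 2315945) had 60.0, 75.5 and 84.1 CPM and then 99.2, 99.3 and 88.9 CPM, a log2 fold change of 0.39 ± 0.14 (adjusted p = 0.184). For the related c″ subunit gene vha-4 (gene 174272, chromosome II, 7878082 to 7879811) the values were 103.8, 132 and 128 CPM and 142.3, 144 and 139.8 CPM (0.23 ± 0.11 on the log2 scale, adjusted p = 0.274; 0.12 without vehicle replicate 1). The deposited table describes vha-1, vha-2 and vha-3 alike as proteolipids of the pump. How reads that match several of these genes were counted was not stated, so their split is uncertain.

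Of the remaining V0 genes, vha-16 for subunit d had 226, 266 and 258 CPM in vehicle and 332, 319.6 and 319.7 CPM with ilimaquinone, with a log2 fold change of 0.37 ± 0.09 (adjusted p = 0.115; DESeq2 adjusted p = 0.00930). Subunit e, vha-17, was the other pump gene beside vha-7 whose groups overlapped, at 92.7 ± 12.3 and 103.8 ± 3.33 CPM (0.16 on the log2 scale, and 0.07 without vehicle replicate 1). The accessory subunit genes vha-19 and vha-20, counterparts of Ac45 and of the prorenin receptor, had log2 fold changes of 0.35 ± 0.09 and 0.29 ± 0.13, both with separated groups (adjusted p = 0.127 and 0.254). The vha-20 value was 0.16 without vehicle replicate 1.

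**Figure D4:**
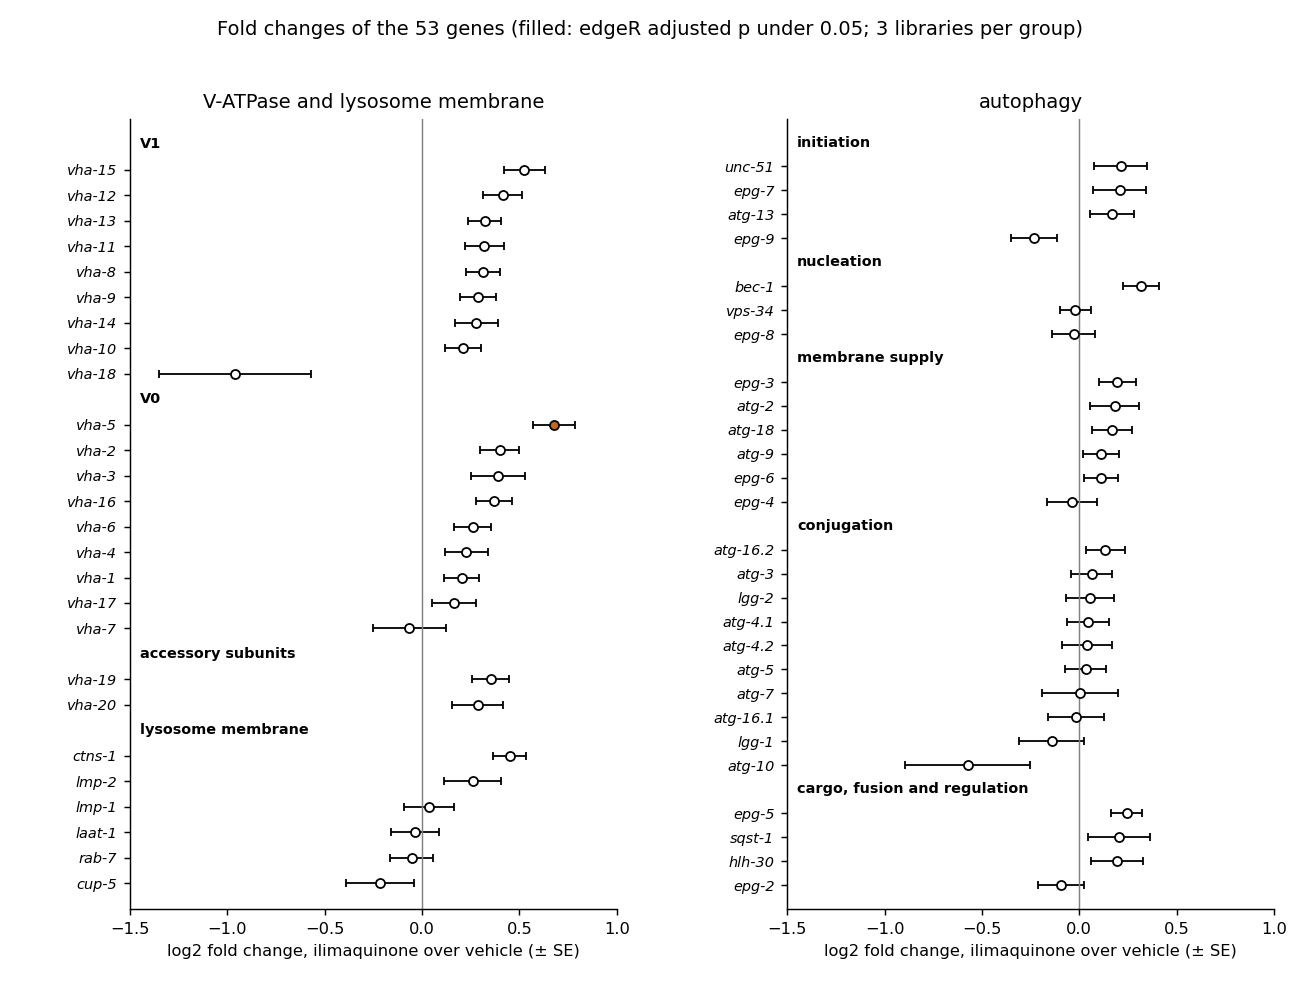
Log2 fold change of ilimaquinone over vehicle with its standard error for all 53 genes, grouped by sector or step, with the point filled where the adjusted p was under 0.05. The vha-5 point is the filled one, most pump genes lie between 0.16 and 0.52, and the autophagy genes scatter around 0 from -0.57 to 0.32.

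None of the 27 autophagy genes passed the test. The edgeR test called 0 of them, with 2 higher and 0 lower at an unadjusted p under 0.05, and the DESeq2 count was 0. Of all tested genes 1.47% were called by edgeR, and 10.1% were higher and 11.8% lower at that unadjusted p. DESeq2 called 5.45% of all genes higher and 5.86% lower. The median log2 fold change of the 27 autophagy genes was 0.06, or 0.03 without vehicle replicate 1. A positive value was found in 19 of them, or 70.4% against 48.0% of all tested genes. In 3 genes, bec-1, epg-3 and epg-5, all ilimaquinone libraries were above all vehicle libraries, where 15.8% of all tested genes were. The summed level was 3759, 4627 and 4833 CPM in vehicle and 4772, 4695 and 4688 CPM with ilimaquinone, so the groups overlapped and the low value was that of vehicle replicate 1. Without it the log2 fold change turned its sign in 6 of the 27 genes and moved by over 1.5 times with the same sign to a smaller size in 9 and to a larger size in 5. Leaving that library out, 1 autophagy gene was called lower, epg-9, where 1.63% of all genes were.

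Autophagy starts when the UNC-51 kinase, the Atg1 counterpart, acts with its partners. The gene unc-51 (gene 180311, chromosome V, 19995942 to 20004485) had 132, 158 and 188 CPM in vehicle and 186, 192 and 175 CPM with ilimaquinone. Its groups overlapped, with a log2 fold change of 0.21 ± 0.14 (adjusted p = 0.381), and 0.09 without vehicle replicate 1. The partner gene epg-9 (gene 177040, chromosome IV, 2601141 to 2607571), the Atg101 counterpart, had 85.7, 109 and 109 CPM against 87.4, 88.3 and 82.8 CPM. Vehicle replicate 1 was at the ilimaquinone level and the other vehicle libraries were above it. The log2 fold change was -0.23 ± 0.12 (adjusted p = 0.282), and -0.34 ± 0.07 without vehicle replicate 1 (adjusted p = 0.0486). The other initiation genes, atg-13 and epg-7, were at 0.17 ± 0.11 and 0.21 ± 0.14 on the log2 scale, and at 0.07 and 0.10 without vehicle replicate 1.

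The VPS-34 lipid kinase then marks the membrane, and Beclin, encoded by bec-1 (gene 177345, chromosome IV, 5661141 to 5664425), is its partner. Transcripts of bec-1 were at 54.8, 52.99 and 60.7 CPM in vehicle and 69.5, 66.9 and 73.6 CPM with ilimaquinone. It had the highest positive log2 fold change of the autophagy genes, 0.32 ± 0.09 with a 95% interval of 0.09 to 0.54, and did not pass the test (adjusted p = 0.149, and 0.131 to 0.408 with any 1 library left out). The kinase gene vps-34 itself was at 67.0 ± 2.01 and 66.1 ± 1.08 CPM, a difference of -0.02 ± 0.08 on the log2 scale. The Atg14 counterpart epg-8 was likewise near 0, at -0.03 ± 0.11.

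Membrane for the growing sac comes with ATG-9 vesicles and through lipid transfer. The gene atg-9 (gene 178561, chromosome V, 349385 to 359658) had 87.2, 97.4 and 102 CPM in vehicle and 103.7, 106 and 99.8 CPM with ilimaquinone, which overlap (0.11 ± 0.09 on the log2 scale, adjusted p = 0.483; 0.05 without vehicle replicate 1). The VMP1 counterpart epg-3 (gene 176712, chromosome III, 12934717 to 12942289) had 57.2, 50.6 and 50.6 CPM and then 58.7, 63.5 and 59.3 CPM, which did not overlap (0.20 ± 0.09 on the log2 scale, adjusted p = 0.271). The lipid transfer gene atg-2, the WIPI counterparts atg-18 and epg-6, and the EI24 counterpart epg-4 lay between -0.04 and 0.18 on the log2 scale, with overlapping groups. The deposited epg-4 locus shares 1970 bases with rpl-36 on the same strand. The rpl-36 level was 1324 CPM in vehicle and 1176 CPM with ilimaquinone on average, so the epg-4 values are uncertain.

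The conjugation genes attach Atg8 proteins to lipid, and their groups overlapped in all 10 cases. Of all tested genes 30.8% were separated in either direction and the rest overlapped. The gene lgg-1 (gene 174050, chromosome II, 6341434 to 6347719) had 635, 995 and 902 CPM in vehicle and 769.9, 744 and 781 CPM with ilimaquinone. Vehicle replicate 1 was below the ilimaquinone libraries and the other vehicle libraries were above them. The log2 fold change was -0.14 ± 0.17, with a 95% interval of -0.54 to 0.26 (adjusted p = 0.634), and without vehicle replicate 1 it was -0.31 (adjusted p = 0.08002). The deposited lgg-1 locus runs 5526 bases past its span in the Ensembl annotation and holds C32D5.8 on the same strand, over 3584 bases, at 102 and 79.1 CPM on average (log2 fold change -0.36 ± 0.10, adjusted p = 0.126). Reads may have been split between them, and the lgg-1 values are uncertain to that extent. The gene lgg-2 (gene 177989, chromosome IV, 10934186 to 10935914) had 228, 303 and 265 CPM and then 277, 292 and 257 CPM, with a log2 fold change of 0.05 ± 0.12. Its sign turned without vehicle replicate 1, at -0.05. The gene atg-10 (gene 183959, chromosome II, 8659135 to 8659800) was the scarcest, at 2.66, 1.66 and 2.22 CPM against 1.32, 1.14 and 1.92 CPM, from 37 to 93 counts per library. Its log2 fold change of -0.57 ± 0.32 had the widest error of the group (adjusted p = 0.328). The other 7 conjugation genes, for the E1, E2, Atg5, Atg16 and Atg4 enzymes and partners, lay between -0.02 and 0.13 on the log2 scale. Among them, the deposited atg-7 locus shares 3560 bases with let-70 on the same strand. The let-70 level was 699 CPM in vehicle and 693 CPM with ilimaquinone on average, so the atg-7 values are uncertain.

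Cargo is brought in by receptors such as SQST-1, whose protein is itself degraded by autophagy. The gene sqst-1 (gene 178139, chromosome IV, 12034282 to 12037051) had 943, 1084 and 1403 CPM in vehicle and 1349, 1219.7 and 1383 CPM with ilimaquinone. The vehicle libraries spread over the whole ilimaquinone range, with a log2 fold change of 0.20 ± 0.16 (adjusted p = 0.465), and 0.08 without vehicle replicate 1. On the same strand sqst-1 shares 2510 bases of locus with mrpl-51, at 20.3 to 22.1 CPM on average. The tether gene epg-5 (gene 3565794, chromosome II, 6598344 to 6609365), needed for the autophagosome to fuse with the lysosome, had 102, 109 and 112 CPM and then 128, 128 and 126 CPM. These did not overlap, and the log2 fold change of 0.24 ± 0.08 did not pass (adjusted p = 0.169). Its locus shares 2731 bases with dnj-8 on the same strand, at 71.8 and 81.3 CPM on average. The cargo adaptor gene epg-2 was at -0.09 ± 0.12 on the log2 scale.

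The regulator gene hlh-30 (gene 177157, chromosome IV, 4014787 to 4034940) had 327, 403 and 437 CPM in vehicle and 466, 465 and 403 CPM with ilimaquinone. The third ilimaquinone library was at the level of the second vehicle library, so the groups overlapped. The log2 fold change was 0.19 ± 0.13, with a 95% interval of -0.12 to 0.51 (adjusted p = 0.407), and it was 0.08 without vehicle replicate 1. HLH-30 is controlled largely through its entry into the nucleus, which RNA levels do not measure.

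**Figure D5:**
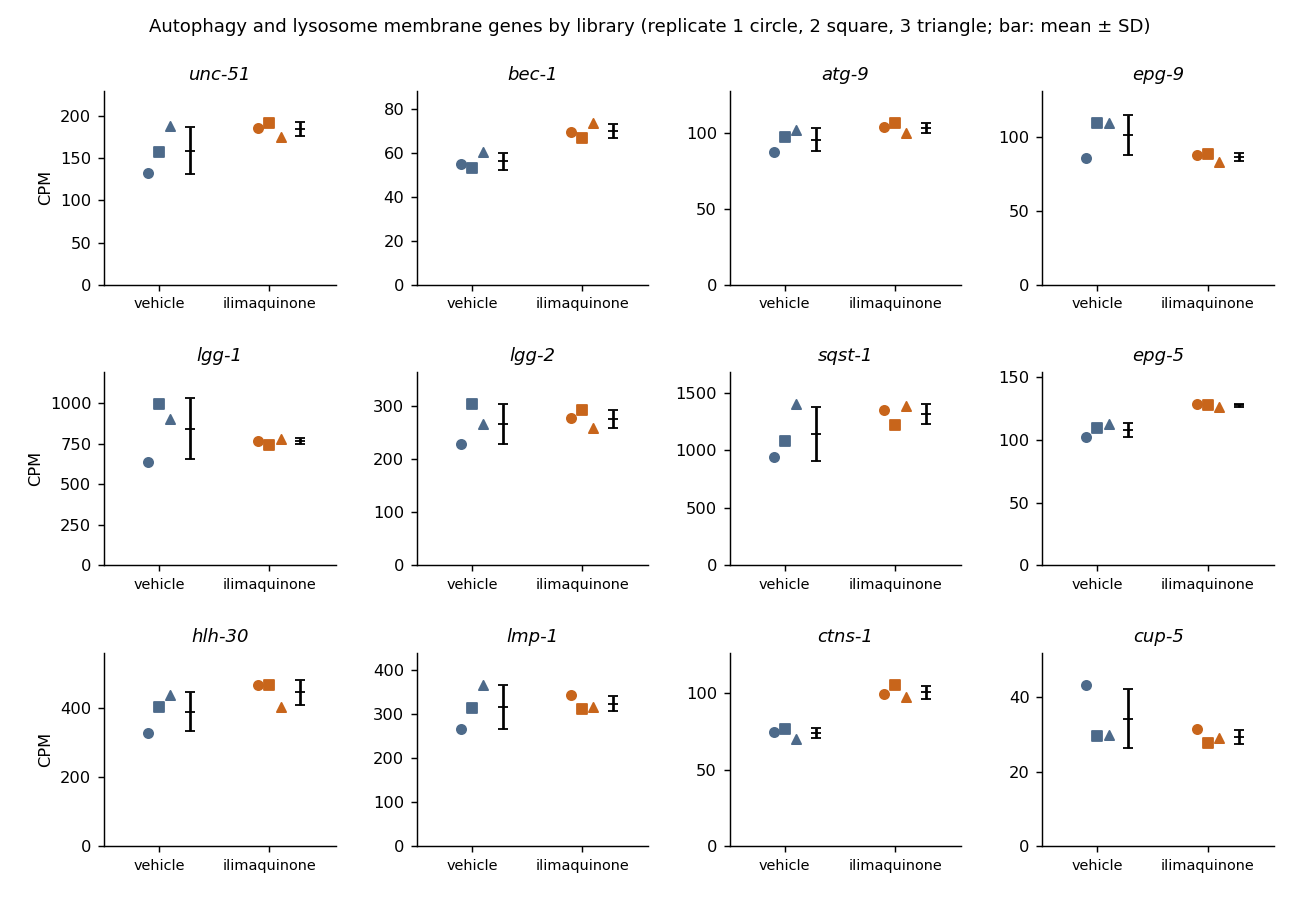
CPM of 9 autophagy genes and 3 lysosome membrane genes in each library, with the mean ± SD of each group beside the points and the vertical axes starting at 0. The groups are separate for bec-1, epg-5 and ctns-1 and overlap for unc-51, atg-9, epg-9, lgg-1, lgg-2, sqst-1, hlh-30, lmp-1 and cup-5.

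Of the 6 lysosome membrane genes, edgeR called 0, and 1 was higher and 0 lower at an unadjusted p under 0.05, while DESeq2 called 1 higher, ctns-1. Of all tested genes edgeR called 1.47%, and 10.1% were higher and 11.8% lower at that unadjusted p. DESeq2 called 5.45% of all genes higher. The ctns-1 gene encodes cystinosin, which exports cystine from the lysosome (gene 174308, chromosome II, 8134737 to 8136918). Its values were 74.7, 76.4 and 70.1 CPM in vehicle and 99.4, 105 and 97.2 CPM with ilimaquinone. The groups were well apart, and the log2 fold change was 0.45 ± 0.08 with a 95% interval of 0.25 to 0.65 (adjusted p = 0.0605; DESeq2 adjusted p = 1.21e-04). Without vehicle replicate 1 it passed the edgeR test, at an adjusted p of 0.0302, where 2.68% of all tested genes were called higher.

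The other lysosome membrane genes had overlapping groups. The LAMP gene lmp-1 (gene 180912, chromosome X, 6376455 to 6378539), whose product marks the lysosome membrane, had 265, 314 and 365 CPM in vehicle and 342, 310.2 and 316 CPM with ilimaquinone. Its log2 fold change was 0.04 ± 0.13, with a 95% interval of -0.27 to 0.34 (adjusted p = 0.886), and -0.08 without vehicle replicate 1. The related lmp-2 had 11.0, 12.8 and 10.2 CPM and then 13.9, 12.7 and 14.1 CPM, a difference of 0.26 ± 0.15 on the log2 scale. The mucolipin gene cup-5 (gene 176074, chromosome III, 7584181 to 7591581), an ion channel of lysosomes, had 43.4, 29.5 and 29.8 CPM and then 31.5, 27.8 and 29.0 CPM, with vehicle replicate 1 above the rest (-0.22 ± 0.17 on the log2 scale, adjusted p = 0.477; -0.01 without vehicle replicate 1). The gene laat-1, whose product exports lysine and arginine, had 27.02, 21.7 and 24.99 CPM in vehicle and 24.2, 24.7 and 22.9 CPM with ilimaquinone. The GTPase gene rab-7 had 159, 192 and 203 CPM and then 178.5, 182 and 173 CPM. For both genes the ilimaquinone values lay within the vehicle range, with log2 fold changes of -0.04 ± 0.12 and -0.05 ± 0.11 (adjusted p = 0.872 and 0.792), and 0.03 and -0.15 without vehicle replicate 1. The laat-1 locus shares 2899 bases with Y43H11AL.1 on the same strand.

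Other genes of the pathway were read from the same fit. Of 26 tested partners at the endosome and lysosome, among them the HOPS tethering subunits, the Ragulator and Rag GTPases and the TOR kinase let-363, edgeR called 0, with 4 higher and 0 lower at an unadjusted p under 0.05, and DESeq2 called 2 higher, unc-32 and mtm-3. The shares of all tested genes were 10.1% higher at that unadjusted p and 5.45% higher by DESeq2. Their median log2 fold change was 0.11. The smallest p was that of mtm-3, a lipid phosphatase of the autophagy pathway, at 262 ± 10.6 and 340 ± 8.05 CPM (log2 fold change 0.37 ± 0.08, adjusted p = 0.0844). Of 19 lysosomal hydrolase genes 1 rose and 0 fell by edgeR, with 2 higher and 5 lower before adjustment at p under 0.05 and 2 higher and 3 lower by DESeq2, and the median was -0.02. Without vehicle replicate 1 edgeR called 2 higher and 2 lower. Beside these counts, edgeR called 1.14% of all tested genes higher and 0.327% lower, or 2.68% and 1.63% without that library, while 10.1% and 11.8% passed before adjustment and DESeq2 called 5.45% and 5.86%. The gene that rose was aman-1, for a lysosomal mannosidase, which went from 6.39 ± 0.544 to 12.1 ± 0.891 CPM, or 0.92 ± 0.15 on the log2 scale (adjusted p = 0.0436). Its call held without vehicle replicate 1 (adjusted p = 0.0217) and was lost without any other single library (adjusted p = 0.0662 to 0.246).

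The transcript table splits the 53 genes into 93 transcripts, of which 84 were abundant enough to test, and 19 genes have more than 1. The edgeR test over 22238 transcripts called 0 of the 84, where 0.292% of all tested transcripts were called. At an unadjusted p under 0.05 there were 19 higher and 1 lower, where 7.51% and 8.14% of all were, and DESeq2 called 10 higher, beside 3.86% of all transcripts it gave an adjusted p. For vha-5 and for most pump genes the gene is 1 transcript, so nothing new is added. The ctns-1 transcripts both had positive values, 0.48 ± 0.10 for the 1366-base form that held 74.0% of its counts and 0.35 ± 0.18 for the 1398-base form.

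For cup-5 the 5 transcripts did not move together. Its 2215-base form had 25, 28 and 61 counts in vehicle and 347, 267 and 67 counts with ilimaquinone, so a pair of ilimaquinone libraries was high and the third was not. The log2 fold change was 2.44 ± 0.72 (adjusted p = 0.241 over transcripts). The 2248-base form had 371, 106 and 258 counts and then 103, 85 and 146 counts, at -1.25 ± 0.48 (adjusted p = 0.303). The 2256-base form, with the largest part of the counts (28.8%), was at -0.70 ± 0.46 (adjusted p = 0.478). The 2586-base and 2266-base forms, with 22.1% and 20.9%, were at 0.60 ± 0.22 and -0.95 ± 0.54 (adjusted p = 0.291 and 0.423). How reads shared by these forms were assigned was not stated, so the split between forms is uncertain.

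The gene hlh-30 has 10 transcripts, of which the 2224-base form held 55.4% of its counts. That form had 6651, 5682 and 7095 counts in vehicle and 11971, 7412 and 9063 counts with ilimaquinone, and its log2 fold change of 0.42 ± 0.17 did not pass (adjusted p = 0.306). In atg-18, the 1789-base and 1752-base forms traded places between libraries of the same group, with 4723, 3483 and 4688 counts against 2356, 4962 and 2318 counts in vehicle. The sum for the gene varied less, at 226 ± 23.6 CPM in vehicle and 254 ± 8.99 CPM with ilimaquinone.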

How the data were processed

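Sample titles gave each library its group and its number. Each library was made from 1 µg of total RNA, per the labels' protocols. Per the submitters' processing notes, bcl2fastq 2.20.0, HISAT2 2.1.0 and SAMtools 1.9 were used with build WBcel235. No counting program, strand option or annotation version was given in the sources used here. Per the file headers, the values are read counts, all whole numbers as deposited and called estimated counts here because the counting program is unknown, and FPKM and TPM values computed by the authors, for genes and for transcripts. The test planned for counts was kept for these estimated counts, which needed no rounding. FPKM values that the authors deposited served 1 alternative, the shares of a subunit genes, and the deposited TPM values gave levels per length and those shares. No further per-sample value columns were present. Among transcript lines 1 was empty as given.

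The tests ran in edgeR 4.0.16 under R 4.3.3, on all 6 libraries with no covariate, with filterByExpr, TMM scaling, glmQLFit and glmQLFTest. P-values had Benjamini-Hochberg adjustment over all tested features and a threshold of 0.05. CPM uses TMM-scaled library sizes. Standard errors are log2 fold changes over the root of F, and 95% intervals use its degrees of freedom. The biological coefficient of variation was 28.4%. The procedure was tested on simulated data. Positions are the first to last base of a gene's transcripts in the deposited table, on WBcel235, and 48 of 53 lay within 1000 bases of Ensembl release 115 at both ends.

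Alternatives were DESeq2 1.42.0, its size factors in edgeR, library size alone, no filter, a stricter filter (1 CPM in 3 libraries and 50 counts), the replicate number as a block, limma 3.58.1 on log2(TPM + 1) values, and each library left out in turn. The members, lists, tests and naming rule were chosen with earlier results of these data known. The rule gives per-library values for called members, the 5 smallest p and the 3 highest TPM of each of the 3 groups, and 21 genes fixed by name.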

Additional observations from a re-analysis of the deposited data

How the results depend on the processing

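Same-numbered libraries deviated from their group means with correlations of -0.16, 0.29 and -0.16, and differently numbered ones with -0.32 to 0.37. Deviations from a mean of 3 libraries depend on each other. These values therefore cannot settle whether the replicate numbers pair the libraries. With the replicate block, edgeR called 21 genes higher and 1 lower in all, and 0 V-ATPase genes. The counts over all genes, 188 higher and 54 lower, were 882 and 949 in DESeq2, 60 and 9 without a filter, and 94 lower with the stricter filter; leaving out 1 library gave 11 to 451 higher and 0 to 274 lower. The V-ATPase count of 1 higher became 8 in DESeq2, 3 in limma-trend on TPM, 0 without a filter, and 0 to 2 with 1 library left out, so the vha-5 call depends on these choices. The lysosome membrane count of 0 higher was 1 in DESeq2 and 0 to 1 with 1 library left out. No autophagy gene was called in these settings, apart from 0 to 1 lower with 1 library left out (epg-9, without vehicle replicate 1). Of transcripts, DESeq2 called 10 higher (3.86% of all) against 0. The cause of these differences was not tested. Among 29 named genes under 13 alternatives the log2 fold change kept its sign except, with 1 library left out, for vha-7 (-0.26 to 0.11), lgg-2 (-0.047 to 0.14), laat-1 (-0.14 to 0.032), lmp-1 (-0.078 to 0.15) and rab-7 (-0.15 to 0.0099). The median of all tested genes stayed within -0.08 and 0.01. Depth limits atg-10, with 37 counts in its lowest library.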
